A study of Mus musculus with 4 samples.

Results

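The genes described are 10 members of the circadian clock and its output, namely Bhlhe40, Nfil3, Arntl, Clock, Per1, Per2, Cry1, Nr1d1, Nr1d2 and Dbp. They were taken by symbol from 24421 genes in the files. All 10 were present, and all 10 passed the filter on low counts that kept 16322 genes. The list was drawn up with the omental tumor and spleen levels in view, so those levels are given as a description, and no p-value is printed for any of the 10. Which of them the test over all genes called is stated below, beside the share of all genes called, and nothing is read from it.

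The cells were regulatory T cells (Tregs), the Foxp3-expressing T cells that restrain immune responses. The omental tumor group held 2 libraries, from mouse 2 and mouse 3, and the spleen group held 2 libraries from the same mice. Every mouse in both groups was CD45.1+, was injected in the peritoneal cavity with EG7.1.15 tumor cells, and was surgically joined for 14 days to a tumor-free CD45.1- partner. The sequenced Tregs came from the partner, of strain B6 Foxp3-DTR/GFP, in which Foxp3-expressing cells carry a diphtheria toxin receptor and a green fluorescent protein. They were sorted at day 14 as live CD45.1-, CD45.2+, B220-, CD4+, CD25+ and GFP+ cells, a gate set to take Tregs that had come over from the partner. All tumors came from 1 cell line. The hour of day at which the tissues were taken is not given in the sources used here.

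The clock is a feedback loop of transcription. Arntl (also called Bmal1) and Clock form a dimer that binds E-box sequences and switches on Per and Cry genes, whose proteins then inhibit the dimer. The same dimer drives Nr1d1 and Nr1d2, nuclear receptors that repress Arntl, and Dbp, an activator that binds D-box sequences. Nfil3 binds the same D-box sequences as a repressor, and Bhlhe40 (also called Dec1) competes with the dimer for E-boxes. In T cells Bhlhe40 and Nfil3 are also known outside the clock, as regulators of cytokine genes. Per1 is also known as an early response gene, inducible through cAMP and the factor CREB.

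Genes received 6660230 and 3764508 counts in the omental tumor libraries of mouse 2 and mouse 3, against 9989005 and 13598631 counts in the spleen libraries. Levels are given as CPM, counts brought to a common library size with TMM factors, and SDs are over n = 2. Of 16322 genes, 215 passed an adjusted p of 0.05 in edgeR's quasi-likelihood test (178 higher and 37 lower in omental tumor). Leaving out 1 library gave 606 calls for the omental tumor of mouse 2, 79 for that of mouse 3, 44 for the spleen of mouse 2 and 74 for that of mouse 3. Foxp3, Il2ra, Cd4 and Ptprc, the genes of the sort, were detected in all 4 libraries. Each was lower in both omental tumor libraries than in either spleen library, and their summed levels were 3225 and 1443 CPM in omental tumor, for mouse 2 and mouse 3, against 3977 and 6073 CPM in spleen.

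**Figure D1:**
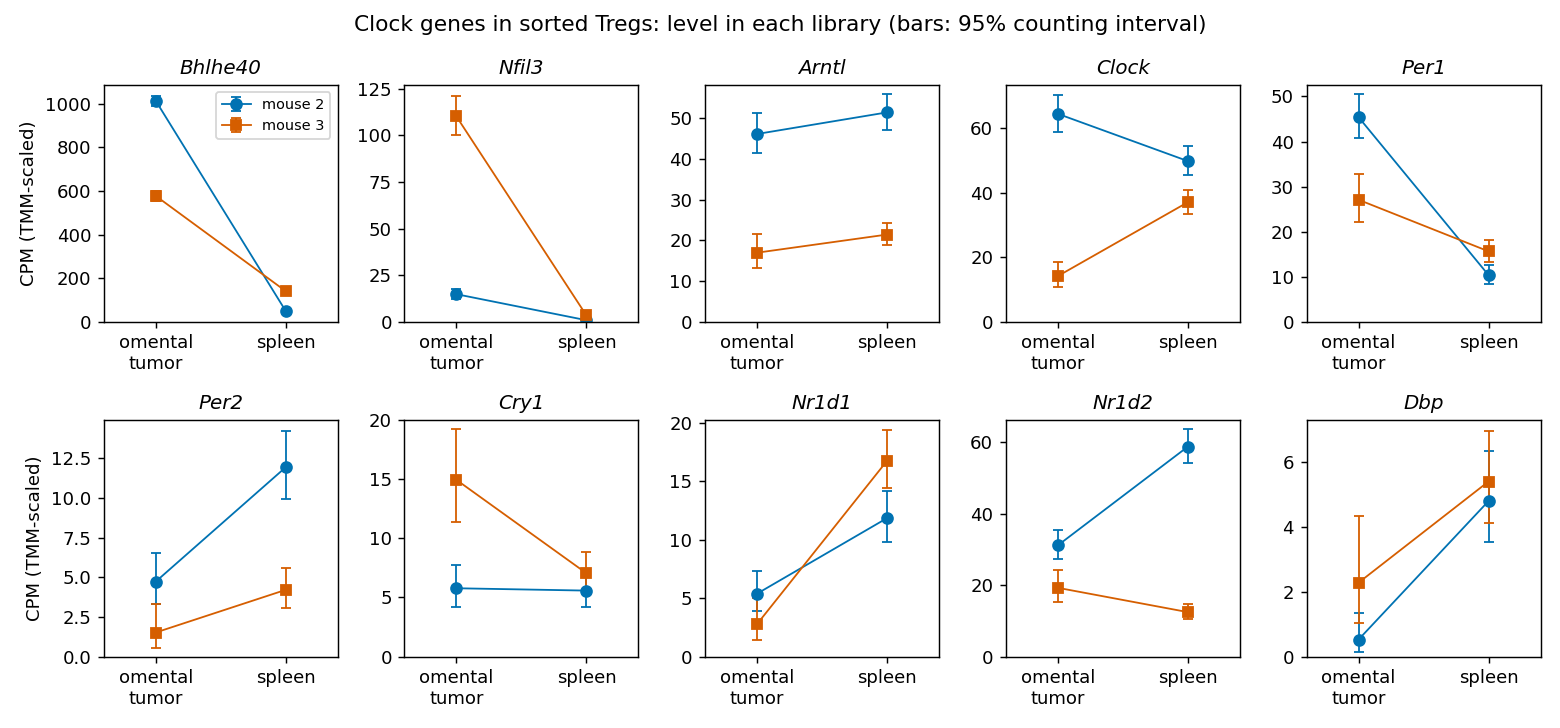
Level of each of the 10 clock genes in each library, in TMM-scaled CPM on axes that start at 0, with omental tumor at the left and spleen at the right of each panel. Circles are mouse 2 and squares mouse 3, lines join libraries of one mouse, and bars are exact 95% Poisson intervals that cover counting error only. Bhlhe40, Nfil3 and Per1 lie higher in omental tumor in both mice, while Per2, Nr1d1 and Dbp lie lower.

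Bhlhe40 and Nfil3, the repressors that link the clock to T cell function, stood far higher in Tregs from omental tumors than in those from spleens. Bhlhe40 (chromosome 6, 108660629 to 108666925 in GRCm38) had 1013 and 577 CPM in the omental tumor libraries of mouse 2 and mouse 3, against 50.0 and 141 CPM in their spleen libraries. The omental tumor mean of 795 ± 308 CPM was 8.34 times the spleen mean of 95.4 ± 64.2 CPM. The groups did not overlap, and the ratio within a mouse was 20.3 in mouse 2 and 4.10 in mouse 3. Part of that gap lay in the spleens, where Bhlhe40 was 2.81 times as high in mouse 3 as in mouse 2. In bulk libraries like these, more cells with a transcript and more of it per cell cannot be told apart.

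Nfil3 (chromosome 13, 52967209 to 52981073) had 14.8 and 110.1 CPM in the omental tumor libraries of mouse 2 and mouse 3, against 0.881 and 3.48 CPM in spleen. The groups again did not overlap, and the spleen of mouse 2 gave only 9 reads for the gene. The ratio was 16.8 in mouse 2 and 31.7 in mouse 3. The mean of 62.5 ± 67.4 CPM in omental tumor, against 2.18 ± 1.84 CPM in spleen, rested mainly on mouse 3, whose omental library was 7.42 times as high as that of mouse 2. Without that library the log2 fold change was 2.66, against 4.82 with it. The same library held 1468 CPM of neutrophil markers, against at most 160 CPM in any other, and their part in the Nfil3 level was not tested.

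Among the inhibitors of the dimer, Per1 and Per2 went opposite ways between the tissues. Per1 (chromosome 11, 69095217 to 69109960) had 45.4 and 27.1 CPM in omental tumor, for mouse 2 and mouse 3, against 10.4 and 15.7 CPM in spleen. Both omental tumor libraries stood above both spleen libraries, by 4.38 times in mouse 2 and 1.73 times in mouse 3. Per2 (chromosome 1, 91415982 to 91459324) had 4.73 and 1.52 CPM in omental tumor against 11.9 and 4.21 CPM in spleen. Per2 was lower in omental tumor by nearly the same factor in each mouse, its log2 ratio being -1.29 (mouse 2) and -1.34 (mouse 3). The groups overlapped for Per2 because mouse 2 stood above mouse 3 in both tissues. The lowest Per2 level rested on 6 reads and had a 95% Poisson interval of 0.557 to 3.31 CPM.

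Cry1 (chromosome 10, 85131700 to 85185064), the partner of the Per proteins in inhibition, had 5.78 and 14.9 CPM in omental tumor against 5.58 and 7.05 CPM in spleen. In mouse 2 the tissues differed by less than the counting interval of either library, and in mouse 3 omental tumor was 2.12 times as high. Without the omental tumor library of mouse 3 the log2 fold change of Cry1 turned to -0.22, against 0.70 with it.

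The direct outputs of the dimer Nr1d1 and Dbp stood lower in omental tumor in both mice. Nr1d1 (chromosome 11, 98767932 to 98775333), which encodes the repressor REV-ERB alpha, had 5.38 and 2.78 CPM in omental tumor, for mouse 2 and mouse 3, against 11.8 and 16.7 CPM in spleen. The groups did not overlap, and the means were 4.08 ± 1.84 CPM for omental tumor against 14.3 ± 3.47 CPM for spleen. Dbp (chromosome 7, 45705088 to 45710203) had 0.525 and 2.28 CPM in omental tumor against 4.80 and 5.40 CPM in spleen. Dbp rested on 4 and 9 reads in the omental tumor libraries, and the upper 95% Poisson bound of the mouse 3 library, 4.33 CPM, lay above the lower bounds of both spleen libraries, 3.55 and 4.11 CPM. Nr1d2 (chromosome 14, 18204054 to 18239127), the paralog of Nr1d1, did not follow it. It had 31.1 and 19.2 CPM in omental tumor against 58.7 and 12.4 CPM in spleen, lower in omental tumor in mouse 2 and higher in mouse 3.

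The activating pair showed no shift that held across mice and scalings. Arntl (chromosome 7, 113207465 to 113314126) had 46.1 and 17.0 CPM in omental tumor, for mouse 2 and mouse 3, against 51.4 and 21.4 CPM in spleen. Clock (chromosome 5, 76209868 to 76304792) had 64.5 and 14.2 CPM in omental tumor against 49.8 and 37.1 CPM in spleen. The tissues overlapped for both genes. Their log2 fold changes of -0.20 and -0.14 turned to 0.22 and 0.28 with upper-quartile factors.

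In all, both omental tumor libraries exceeded both spleen libraries for 3 of the 10 genes (Bhlhe40, Nfil3 and Per1), where 16.4% of the 16322 genes tested did so. Both lay below for 2 of the 10 (Nr1d1 and Dbp), where 25.4% of genes tested did so. In edgeR's quasi-likelihood test 1 of the 10, Nfil3, was called higher, where 1.09% of genes tested were, and none was called lower, where 0.227% were (1.32% in either direction). Bhlhe40 was also called by DESeq2, which called 363 of 14172 genes, and with upper-quartile factors, which called 201 of 16322. The Nfil3 call was lost with library totals, with a minimum count of 50, and on leaving out either the omental tumor of mouse 3 or the spleen of mouse 2. The list was drawn up on this contrast, and nothing is read from these counts. The median log2 fold change was -0.17 over the 10 genes and 0.11 over all genes tested. On CPM scaled by library totals alone, Bhlhe40 had 1158 and 605 CPM in omental tumor against 51.2 and 113 CPM in spleen, and Nfil3 had 17.0 and 116 CPM against 0.901 and 2.79 CPM.

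**Figure D2:**
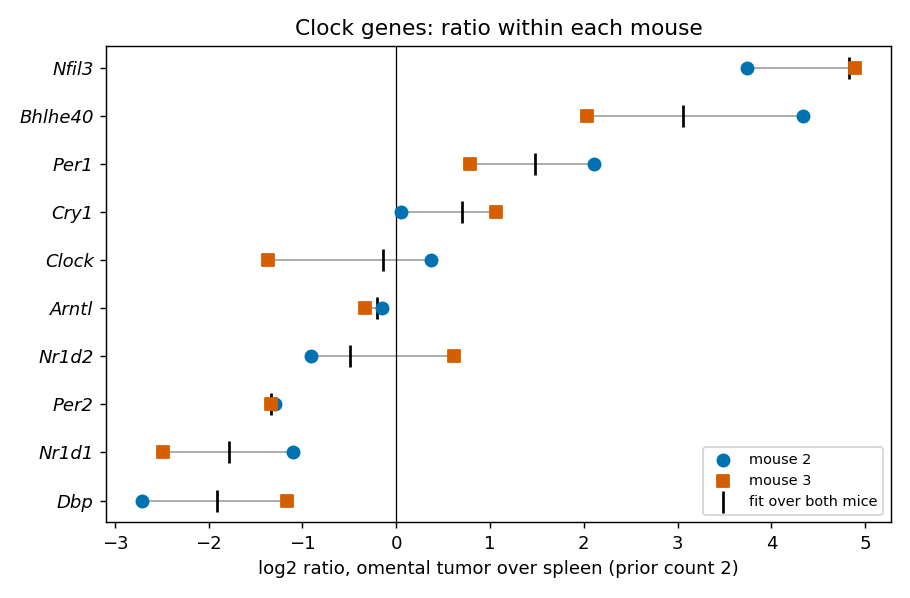
Log2 ratio of omental tumor over spleen within mouse 2 (circles) and mouse 3 (squares) for the 10 clock genes, with the value fitted over both mice as a vertical mark and a prior count of 2 reads. The ratios of Per2 (-1.29 and -1.34) and Arntl (-0.16 and -0.33) nearly coincide between mice, whereas Clock and Nr1d2 have opposite signs.

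The mice differed from each other in some of these genes by more than the tissues did. Arntl was 2.72 times as high in mouse 2 as in mouse 3 in omental tumor and 2.40 times as high in spleen. Per2 was 3.11 and 2.84 times as high in mouse 2 in those tissues, and Nr1d2 was 1.62 and 4.72 times as high. Nr1d1 and Dbp did not share that order, since Nr1d1 was 1.93 times as high in mouse 2 in omental tumor and 1.41 times as high in mouse 3 in spleen. Dbp was 4.34 times as high in mouse 3 in omental tumor and 1.13 times as high in spleen. With the mouse as a replicate block the log2 fold changes of Arntl, Per2 and Nr1d2 were -0.25, -1.39 and -0.15, against -0.20, -1.34 and -0.50 without it.

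Ratios of 2 genes counted in the same library do not depend on library scaling. Per1 to Nr1d1, Per1 to Per2 and Nfil3 to Dbp each set a gene seen higher in omental tumor over one seen lower. Their rise in omental tumor follows from those levels, so these ratios are given as a description. Per1 gave 8.44 and 9.73 reads for each read of Nr1d1 in the omental tumor libraries of mouse 2 and mouse 3, against 0.876 and 0.934 in spleen. The 2 mice agree within counting error in each tissue, and the 95% binomial intervals ran from 5.22 to 20.1 over the omental tumor libraries and from 0.669 to 1.16 over the spleen libraries. The ratio of Per1 to Per2 was 9.61 and 17.8 in omental tumor against 0.869 and 3.72 in spleen. The D-box repressor Nfil3 outnumbered the D-box activator Dbp by 28.2 and 48.3 to 1 in omental tumor, against 0.184 and 0.644 to 1 in spleen. Reads of Nfil3 thus exceeded those of Dbp in both omental tumor libraries and fell short of them in both spleen libraries. Arntl to Clock, the partners of the activating dimer, showed no such split, with 0.715 and 1.20 in omental tumor against 1.03 and 0.578 in spleen.

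**Figure D3:**
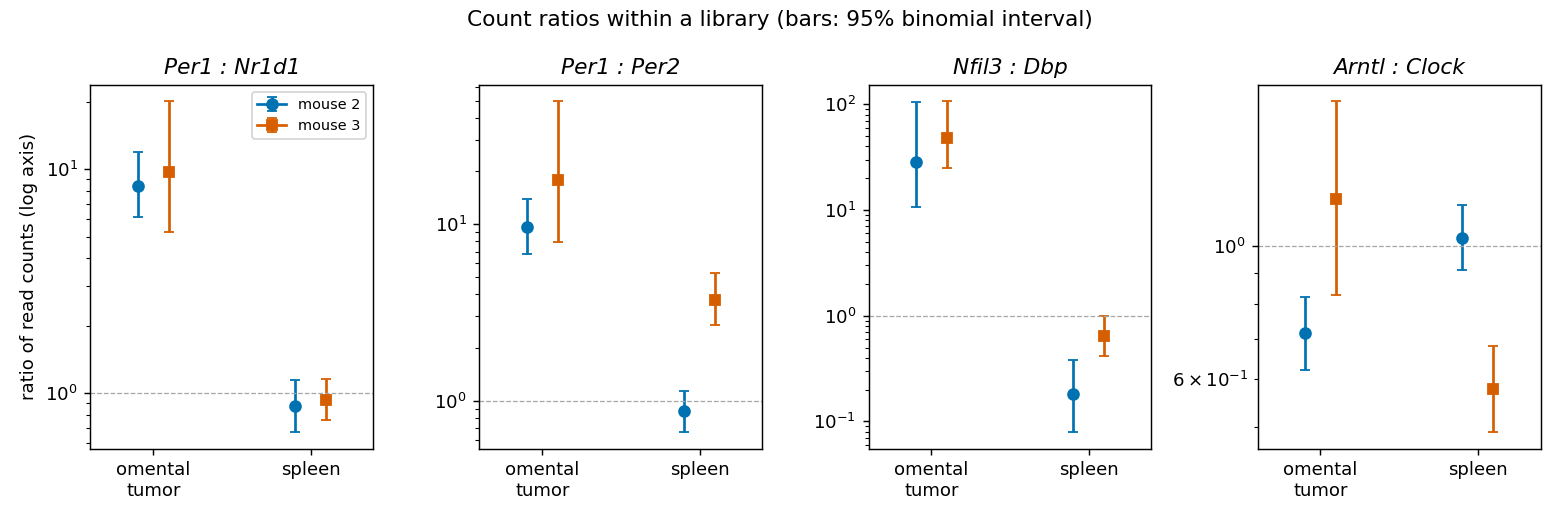
Ratio of read counts of 2 genes within each library, on a log axis, with omental tumor at the left and spleen at the right, circles for mouse 2 and squares for mouse 3. Bars are exact 95% binomial intervals that cover counting error only. Per1 to Nr1d1 lies at 8.44 and 9.73 in omental tumor and just under 1 in spleen, and the interval of each tissue stays clear of the other's, while Arntl to Clock overlaps.

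Levels of different genes were set side by side per kilobase of annotated exon, in CPM per kb. Bhlhe40 was the most abundant of the 10 in omental tumor in both mice, at 320 and 182 CPM per kb for mouse 2 and mouse 3. In spleen it was second to Arntl in mouse 2, at 15.8 against 16.6 CPM per kb, and first in mouse 3, at 44.4 CPM per kb. Nfil3 was the second most abundant in the omental tumor of mouse 3, at 54.4 CPM per kb, and the fourth in that of mouse 2, at 7.32, while in spleen it came last in mouse 2, at 0.435, and ninth in mouse 3, at 1.72. By group means in omental tumor the order was Bhlhe40 (251 ± 97.3), Nfil3 (30.8 ± 33.3), Arntl (10.2 ± 6.66), Per1 (6.45 ± 2.30), Nr1d2 (5.40 ± 1.80), Clock (3.96 ± 3.58), Cry1 (3.42 ± 2.14), Nr1d1 (1.50 ± 0.675), Dbp (0.763 ± 0.675) and Per2 (0.535 ± 0.389 CPM per kb). In spleen it was Bhlhe40 (30.1 ± 20.2), Arntl (11.8 ± 6.86), Nr1d2 (7.63 ± 7.02), Nr1d1 (5.25 ± 1.27), Clock (4.38 ± 0.909), Dbp (2.77 ± 0.232), Per1 (2.31 ± 0.663), Cry1 (2.09 ± 0.343), Per2 (1.38 ± 0.937) and Nfil3 (1.08 ± 0.906 CPM per kb). Of neighbors in these orders, Bhlhe40 and Nfil3 in omental tumor, and Clock and Dbp in spleen, were further apart than their 2 SDs added together, and no other pair was.

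Some of these genes share exon sequence with a gene on the other strand, and the library kit does not mark strand. In Dbp 29.3% of the annotated exon bases overlap Sphk2, in Nr1d1 9.67% overlap Thra, and in Bhlhe40 3.73% overlap 0610040F04Rik. Sphk2, a sphingosine kinase gene, had 18.4 and 3.54 CPM in omental tumor, for mouse 2 and mouse 3, against 41.2 and 59.9 CPM in spleen. Sphk2 was thus lower in omental tumor in the same libraries as Dbp, and its part in the Dbp counts was not tested. Thra, the thyroid hormone receptor alpha gene, had 3.02 and 3.54 CPM in omental tumor against 4.11 and 4.21 CPM in spleen. The gene 0610040F04Rik had 5.12 and 2.53 CPM in omental tumor against 2.64 and 0.183 CPM in spleen, far below Bhlhe40 itself.

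Promoter sequence was read in the 250 bases before each RefSeq start (GRCm38.p6), trimmed at the first annotated exon base. RefSeq promoter windows, 12 in all, were at hand for 8 of the 10 genes. The stretches below are those that hold one of the marked motifs, and show where the letters of an E-box or of a CREB core lie in Per1, which has a pair of starts, and in Cry1, Nr1d1 and Nfil3. Capitals mark CACGTG (E-box), CACGTT or its complement AACGTG (E-box variant), and TGACG or its complement CGTCA (CREB core), all searched on both strands.
Per1, first start, chr11:69098699-69098947, plus strand: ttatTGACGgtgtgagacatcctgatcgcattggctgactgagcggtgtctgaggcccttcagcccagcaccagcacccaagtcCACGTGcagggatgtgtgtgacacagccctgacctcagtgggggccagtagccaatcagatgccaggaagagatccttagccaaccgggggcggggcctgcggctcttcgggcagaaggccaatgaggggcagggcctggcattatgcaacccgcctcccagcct
Per1, second start, chr11:69099902-69100151, plus strand: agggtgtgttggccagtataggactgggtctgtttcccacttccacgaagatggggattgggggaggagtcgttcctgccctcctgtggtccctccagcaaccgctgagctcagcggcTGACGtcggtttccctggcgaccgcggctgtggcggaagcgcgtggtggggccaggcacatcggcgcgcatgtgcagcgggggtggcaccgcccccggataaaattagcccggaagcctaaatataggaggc
Cry1, chr10:85185065-85185304, minus strand: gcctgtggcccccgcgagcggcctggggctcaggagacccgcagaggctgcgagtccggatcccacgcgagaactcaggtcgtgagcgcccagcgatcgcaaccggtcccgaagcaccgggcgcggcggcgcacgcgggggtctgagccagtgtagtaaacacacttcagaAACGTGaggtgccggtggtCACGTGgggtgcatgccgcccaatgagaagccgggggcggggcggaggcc
Nr1d1, chr11:98775378-98775627, minus strand: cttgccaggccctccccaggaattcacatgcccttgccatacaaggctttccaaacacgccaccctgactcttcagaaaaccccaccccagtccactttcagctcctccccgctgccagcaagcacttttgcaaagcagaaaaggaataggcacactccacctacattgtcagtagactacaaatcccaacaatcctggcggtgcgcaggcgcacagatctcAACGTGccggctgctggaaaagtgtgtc
Nfil3, chr13:52981074-52981289, minus strand: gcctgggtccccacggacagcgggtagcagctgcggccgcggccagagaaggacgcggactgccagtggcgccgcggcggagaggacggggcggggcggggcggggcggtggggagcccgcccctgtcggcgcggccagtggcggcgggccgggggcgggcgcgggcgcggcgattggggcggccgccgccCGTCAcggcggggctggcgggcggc

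The E-box lies 166 bases before the first Per1 start and 60 bases before the Cry1 start, and 6.02% of all 32841 promoter windows of this length hold one. The E-box variant lies 28 bases before the Nr1d1 start and 79 bases before the Cry1 start, and 3.85% of all windows hold it. The CREB core lies in both Per1 windows, 246 and 132 bases before the start, 59 bases before the Nfil3 start and 8 bases before the Cry1 start, the last in exon sequence that is not shown. It is a short motif that 17.8% of all windows hold. The full CREB site TGACGTCA (1.55% of all windows), the D-box forms TTATGTAA (0.819%) and TTACGTAA (0.113%), and TGGGTCA (3.24%), a core form of the element that ROR and REV-ERB receptors bind, were not in any window of the 8 genes. The other core form, TAGGTCA (2.24%), lies 12 bases before the Nfil3 start, again in exon sequence that is not shown. Of the 12 windows 2 held an E-box, and the windows of Arntl, Clock, Nr1d2 and Dbp held none of the motifs searched. These matches are positions in sequence only.

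The rest of the clock was described through 40 further genes in 7 role lists, of which 39 were tested. None of the 39 passed an adjusted p of 0.05 in edgeR's quasi-likelihood test, where 1.32% of all genes tested did. The smallest log2 fold change of any gene called there was 2.78 in size, so smaller shifts went uncalled. An unadjusted p under 0.05 was found for 3 of the 39 and for 9.01% of all genes. DESeq2 passed none either, with 4 at an unadjusted p under 0.05. The median log2 fold change of the 39 was 0.07, with 22 positive and 17 negative, against 0.11 over all genes.

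Closest to the threshold stood Tef, the D-box activator related to Dbp, with 9.06 and 5.82 CPM in omental tumor, for mouse 2 and mouse 3, against 34.2 and 22.6 CPM in spleen. Tef was lower by about the same amount in each mouse (log2 ratios -1.89 and -1.91), and its adjusted p was 0.415 in edgeR. Hlf, the third factor of that family, had 3.68 and 2.53 CPM in omental tumor against 1.08 and 0.275 CPM in spleen (adjusted p = 0.694). Tef and Dbp were thus both lower in omental tumor in both mice, and Hlf was not.

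Rora, a receptor that activates Arntl through the element that Nr1d1 represses, had 756 and 331 CPM in omental tumor against 123 and 162 CPM in spleen, which did not pass in edgeR (log2 fold change 1.93, adjusted p = 0.445). Both omental tumor libraries lay above both spleen libraries. Rorb had 31.1 and 27.1 CPM in omental tumor against 24.2 and 7.32 CPM in spleen.

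Bhlhe41, the paralog of Bhlhe40, was less far apart between tissues than Bhlhe40, a difference that was not tested. It had 268 and 713 CPM in omental tumor, for mouse 2 and mouse 3, against 201 and 133 CPM in spleen (log2 fold change 1.56, adjusted p = 0.600 in edgeR). Without the omental tumor library of mouse 3 its log2 fold change was 0.60. Bhlhe40 gave 3.77 and 0.809 reads for each read of Bhlhe41 in omental tumor, against 0.249 and 1.06 in spleen, so the balance of the paralogs moved one way in mouse 2 and the other in mouse 3. Arntl2 and Npas2, paralogs of Arntl and Clock, were low everywhere. Arntl2 had 2.76 and 1.52 CPM in omental tumor against 0.391 and 0 CPM in spleen (adjusted p = 0.538), and Npas2 had 4.86 and 3.29 CPM against 1.76 and 0.183 CPM (adjusted p = 0.692). Cry2, the paralog of Cry1, had 9.98 and 2.53 CPM in omental tumor against 29.1 and 3.66 CPM in spleen.

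The kinases and ubiquitin ligases that set the stability of clock proteins were split, with 8 of 12 log2 fold changes positive and 4 negative. Csnk1d, a kinase of the Per proteins, had 128 and 74.7 CPM in omental tumor against 210.1 and 205 CPM in spleen (adjusted p = 0.762 in edgeR). Csnk1a1 had 41.3 and 179 CPM against 159 and 33.1 CPM, opposite between mice, and Gsk3b had 29.8 and 106 CPM against 33.4 and 28.3 CPM. Of 12 coregulators 4 were positive and 8 negative. Among them Hdac3, the deacetylase through which the Nr1d receptors repress, had 89.5 and 26.3 CPM in omental tumor against 109.8 and 159.9 CPM in spleen (adjusted p = 0.693). Kdm5a, a histone demethylase that coactivates the dimer, had 221 and 73.2 CPM against 297 and 346 CPM, and Nono, a partner of the Per proteins, had 388 and 198 CPM against 388 and 668 CPM. Of 4 tested outputs, Cirbp, a cold-inducible RNA-binding protein gene, had 83.7 and 111 CPM in omental tumor against 158 and 167 CPM in spleen, and Por had 112 and 104 CPM against 104 and 174 CPM.

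**Figure D4:**
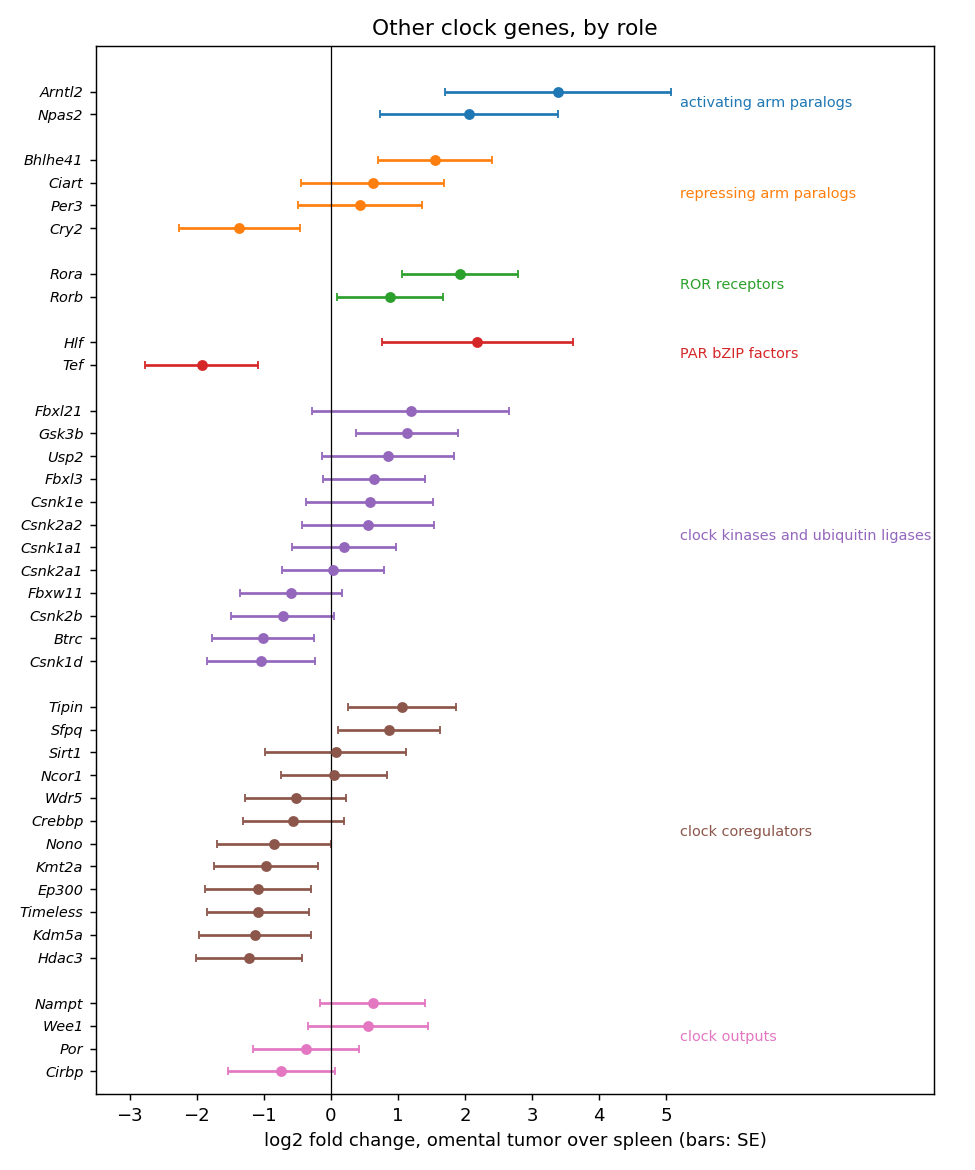
Log2 fold change of omental tumor over spleen for 38 of the 39 tested clock genes other than the 10 described, grouped by role and colored by list, with bars for the SE of the fit. No gene passed the adjusted threshold, and the kinases and ligases, the coregulators and the outputs each have values on both sides of 0.

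Genes reported under Bhlhe40 or Nfil3 in T cells were measured beside them, 6 in all. None passed in edgeR or in DESeq2, each with 2 at an unadjusted p under 0.05, and 1.32% of all genes tested passed in edgeR. Csf2, which encodes the cytokine GM-CSF and depends on Bhlhe40 in T cells, had 3.15 and 8.61 CPM in omental tumor, for mouse 2 and mouse 3, against 0.685 and 0.641 CPM in spleen (adjusted p = 0.384 in edgeR). Csf2 passed with the mouse as a replicate block (adjusted p = 0.0371). Il10, which Bhlhe40 represses in T helper cells, had 25.5 and 85.1 CPM in omental tumor against 7.14 and 20.9 CPM in spleen (log2 fold change 1.98, SE 0.789, adjusted p = 0.327). Il10 was thus higher in the tissue where Bhlhe40 was higher, in both mice, and its size turned on single libraries. Its log2 fold change was 2.58 with the omental tumor of mouse 2 left out, where it passed (adjusted p = 0.0395), 0.77 with that of mouse 3 left out (0.936), 1.35 with the spleen of mouse 2 left out (0.661) and 3.36 with that of mouse 3 left out (0.472). Havcr2, which encodes TIM-3 and is induced by Nfil3 in T cells, had 84.8 and 47.1 CPM in omental tumor against 20.4 and 43.3 CPM in spleen. Foxp3, which Nfil3 can repress, had 81.4 and 84.3 CPM in omental tumor against 113 and 144 CPM in spleen (adjusted p = 0.840).

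Genes that respond to cAMP and CREB, as Per1 does, mostly stood higher in omental tumor. Of 7 tested, all had positive log2 fold changes with a median of 2.29, and 6 were higher in both mice. Over all 24421 genes, 8664 were higher in both mice. In edgeR 3 of the 7 rose past the threshold, where 1.09% of all genes tested did. This list, like the other gene lists here, was drawn up with earlier results of these data known. Its counts and p-values are therefore given as a description. Crem, a cAMP-inducible relative of CREB, had 535 and 594 CPM in omental tumor, for mouse 2 and mouse 3, against 29.9 and 51.5 CPM in spleen (log2 fold change 3.79, SE 0.930, adjusted p = 0.00602). Sik1, a kinase that restrains CREB signaling, had 90.8 and 89.6 CPM against 16.3 and 6.22 CPM (3.00, SE 0.813, adjusted p = 0.0221). The nuclear receptor gene Nr4a2 had 72.7 and 50.6 CPM against 6.65 and 0.824 CPM (4.04, SE 0.868, adjusted p = 0.000709). Each of the 3 was higher in both mice. The calls, more than the sizes, rested on both spleen libraries. Leaving out the one of mouse 2 gave adjusted p-values of 0.580 for Crem, 0.461 for Sik1 and 0.0532 for Nr4a2, and leaving out the one of mouse 3 gave 0.507, 0.801 and 0.445. The log2 fold changes in those fits were 3.40 and 4.51 for Crem, 3.80 and 2.72 for Sik1 and 6.14 and 3.41 for Nr4a2. Sik1 also missed when the omental tumor library of mouse 3 (0.0579) or the filter on low counts (0.0622) was left out. A minimum count of 50 ended all 3 calls (0.0775 to 0.168), and library totals ended those of Sik1 (0.165) and Nr4a2 (0.151).

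Fos and Nr4a1 stood higher without passing in edgeR. Fos had 276 and 243 CPM in omental tumor against 47.4 and 58.7 CPM in spleen (adjusted p = 0.222 in edgeR), and Nr4a1 had 993 and 178 CPM against 135 and 160.0 CPM (0.415). Fos passed in DESeq2 (adjusted p = 0.0436), and the log2 fold change of Nr4a1 was 0.26 with the omental tumor library of mouse 2 left out, against 1.99 with it. Glucocorticoid-responsive genes, another group to which Per1 belongs, had 5 positive and 1 negative log2 fold change. Tsc22d3, which encodes the glucocorticoid-induced leucine zipper GILZ, had 154 and 90.6 CPM in omental tumor against 382 and 829 CPM in spleen (log2 fold change -2.31, adjusted p = 0.274). Tsc22d3 passed in DESeq2 (adjusted p = 0.0377). Dusp1, a phosphatase gene that is both a glucocorticoid and an early response gene, had 31.4 and 451 CPM in omental tumor against 23.6 and 8.69 CPM in spleen (3.90, SE 0.888, adjusted p = 0.00192). It was the single gene of 6 in that list to pass, and it missed with the replicate block (adjusted p = 0.173), with library totals (0.245) and with a minimum count of 50 (0.291). Leaving out the omental tumor of mouse 3 gave an adjusted p of 0.936, and leaving out the spleen of mouse 2 or of mouse 3 gave 0.307 and 0.571.

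Genes that follow tissue handling, and markers of other cells, stood higher in some of the same libraries. Of 11 handling genes, which include Fos, Junb and Dusp1, 7 were higher in both mice, where 8664 of all 24421 genes were. The handling genes summed to 1716 and 2323 CPM in omental tumor, for mouse 2 and mouse 3, against 1002 and 226 CPM in spleen. Junb led them with 1137 and 981 CPM in omental tumor against 584 and 104 CPM in spleen. In edgeR 3 of the 11 handling genes, Dusp1 among them, were called higher, where 1.09% of all genes tested were. Log2 fold changes were positive for 9 of the 11 and negative for 2. The median over the 11 was 2.29, which is the value of Fos. Fos is also the median gene of the cAMP and CREB list. The equal medians thus neither set the lists apart nor liken them. Per1 was also higher in both mice, and neither the part of handling nor that of cAMP and CREB in its level was tested. Fos is in the handling list and in the cAMP and CREB list. Neutrophil markers summed to 160 and 1468 CPM in omental tumor against 102 and 68.3 CPM in spleen, over 9 genes of which 6 were higher in both mice and none was at 0. S100a8 and S100a9, the most abundant of them in the omental tumor of mouse 3 alone, had 0.131 and 1.58 CPM in the omental tumor library of mouse 2 and 412 and 475 CPM in that of mouse 3, against at most 9.52 CPM in either spleen library. In the other libraries Cxcr2 led the list, with 68.5 CPM in the omental tumor of mouse 2 against 47.6 and 20.8 CPM in the spleens. Macrophage and monocyte markers summed to 512 and 874 CPM in omental tumor against 230 and 456 CPM in spleen, with 5 of 12 higher in both mice, 2 lower in both and none at 0. The list did not move as one, since its median log2 fold change was -0.34 and 6 of 11 tested members were negative. The higher sum lay mainly in Lyz2, with 250.1 and 297 CPM in omental tumor against 6.85 and 61.8 CPM in spleen, and in Cd14. Csf1r, which encodes the receptor for a macrophage growth factor, had 38.7 and 14.4 CPM in omental tumor against 69.9 and 109.7 CPM in spleen, and Mrc1 had 17.5 and 5.57 CPM against 23.4 and 37.8 CPM. Nfil3 had its highest level in the omental tumor of mouse 3, whereas Bhlhe40 had its highest level in that of mouse 2. In the omental tumor library of mouse 3 the summed neutrophil markers were highest, as were Cd14, Lyz2, Itgam, Cd68 and Fcgr1. Csf1r, Adgre1, Mrc1 and C1qa were lowest in that library. The part of other cells in Nfil3 or Bhlhe40 was not tested.

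T lineage genes summed to 4405 and 4719 CPM in omental tumor against 5996 and 9416 CPM in spleen, with 8 of 11 lower in both mice. Fibroblast and mesothelial markers summed to 176 and 14.7 CPM in omental tumor against 13.8 and 6.68 CPM in spleen, with Lum and Wt1 at 0 in the omental tumor and the spleen of mouse 3. The sums in omental tumor against spleen were 107 and 49.4 against 39.3 and 16.9 CPM for dendritic cell markers, and 94.3 and 28.1 against 53.9 and 64.9 CPM for B cell markers. Mast cell and basophil markers summed to 42.8 and 14.9 against 31.1 and 10.5 CPM, NK cell markers to 8.40 and 3.80 against 8.22 and 2.65 CPM, and adipocyte markers to 7.61 and 45.3 against 4.99 and 2.84 CPM. Markers of immature T cells and lymphoma summed to 71.0 and 63.3 against 51.5 and 46.9 CPM. Of those 6 genes 4 were higher in omental tumor in both mice and 1, Cd8b1, was lower in both. Cd8b1 had 22.2 and 18.5 CPM in omental tumor against 29.0 and 37.7 CPM in spleen, and Dntt had 21.9 and 21.3 CPM against 7.54 and 3.84 CPM. Klra8, an NK cell receptor gene, was at 0 in all 4 libraries. The fibroblast, dendritic, B cell, mast cell, NK cell and immature T lists were highest in the omental tumor library of mouse 2, where Bhlhe40 and Per1 were highest too, the adipocyte list in that of mouse 3, where Fabp4 alone gave 44.3 CPM and Plin1 and Cidec were at 0, and the T lineage list in the spleen of mouse 3.

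**Figure D5:**
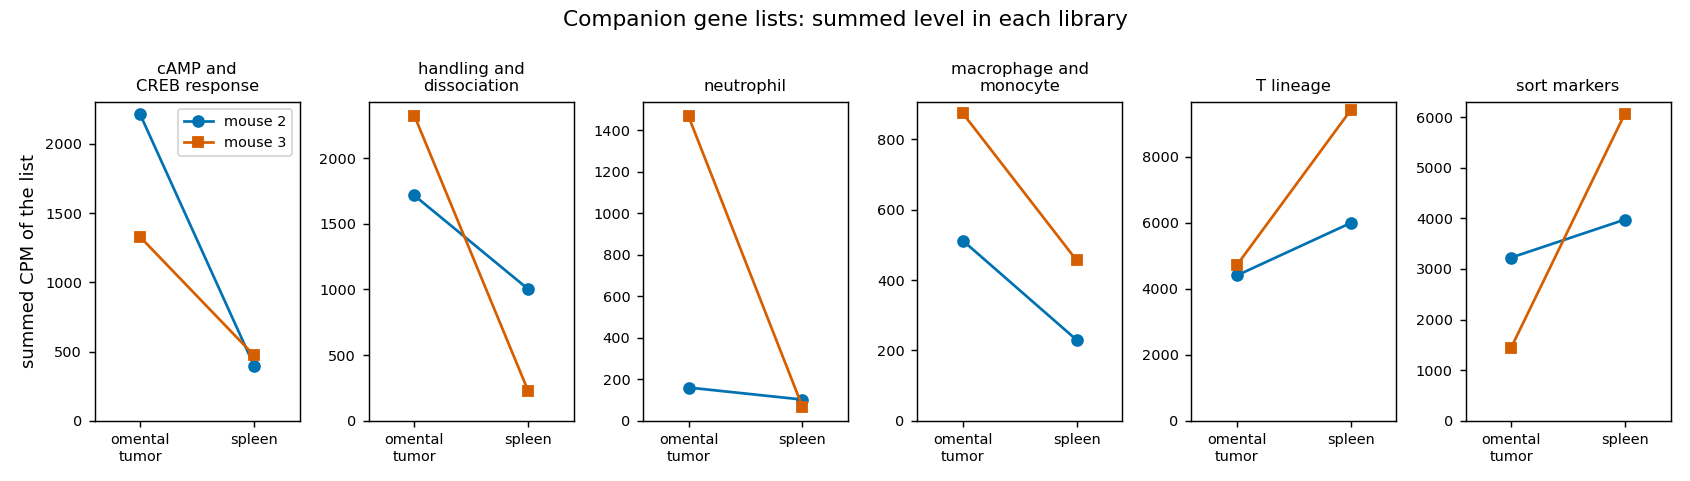
Summed CPM of 6 gene lists in each library, on axes that start at 0, with omental tumor at the left and spleen at the right, circles for mouse 2 and squares for mouse 3. The cAMP and CREB genes lie at 2213 and 1328 CPM in omental tumor against 399 and 473 CPM in spleen, and neutrophil markers reach 1468 CPM in the omental tumor library of mouse 3 and at most 160 CPM elsewhere.

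The genes whose pattern over the 4 libraries lay nearest to that of Nfil3 were Cxcl10, Cxcl3 and Cd14, and those nearest to Bhlhe40 were Wif1, Arg1 and Hey1. Likeness was the root mean square difference of centered log2 CPM over the 4 libraries, among 16321 genes. It was 0.06 for Cxcl10, 0.22 for Cxcl3 and 0.39 for Cd14, and 0.31 for Wif1, 0.42 for Arg1 and 0.43 for Hey1. Cxcl10, an interferon-inducible chemokine gene, had 128 and 971 CPM in omental tumor, for mouse 2 and mouse 3, against 8.71 and 29.3 CPM in spleen. Cd14, a monocyte and macrophage marker, had 23.8 and 273 CPM against 2.64 and 4.85 CPM. Arg1, the arginase gene, had 40.6 and 16.0 CPM in omental tumor against 1.96 and 2.75 CPM in spleen. Wif1 had 10.1 and 7.09 CPM against 0.685 and 1.65 CPM. Hey1 had 5.91 and 4.56 CPM against 0.0979 and 0.275 CPM in spleen, where 3 reads equal 0.294 and 0.275 CPM. The likeness of Wif1 and Hey1 to Bhlhe40 thus rests on few spleen reads. With 4 libraries, 6 genes lay within 0.5 of Nfil3 and 12 within 0.5 of Bhlhe40.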

How the data were processed

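RNA of sorted Tregs was sequenced from omental tumors and spleens of 2 mice. Per the labels' protocols, cDNA was made with the SMART-seq v4 kit and libraries with Nextera XT. The deposited files hold raw read counts per gene symbol, made by the authors with Trim Galore, TopHat2, SAMtools and HTSeq on build mm10, per the submitters' processing notes. The sources used here give no version, annotation or strand setting.

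The 5 summary entries of a file that name no gene were left out. They held 82.9% and 77.8% of the entries in omental tumor, for mouse 2 and mouse 3, against 75.1% and 54.0% in spleen. This share was thus higher in both omental tumor libraries than in either spleen library. Genes were kept by filterByExpr (minimum count 10) in edgeR 4.0.16 under R 4.3.3, library sizes were taken over kept genes, and TMM factors were 1.15 and 1.05 (omental tumor, mouse 2 and mouse 3) against 1.03 and 0.804 (spleen). Tissue was the only term of the quasi-likelihood test (estimateDisp, glmQLFit, glmQLFTest), with Benjamini-Hochberg adjustment over all genes tested at 0.05. Where no tool is named beside an adjusted p, it is from this edgeR test. Positive log2 values mean higher in omental tumor. SEs were taken as the size of the log2 fold change over the square root of F. The prior degrees of freedom were infinite, so SE and p rest on a spread shared by genes of like abundance, not on each gene's mice. Log2 ratios within a mouse use a prior count of 2. The labels mark each mouse number as the same animal in both tissues, so the numbers pair the samples. The main fit leaves that pairing out, and with the mouse as a replicate block 308 genes passed against 215. Deviations from the tissue means correlated at 0.234 over genes between tissues of the same mouse number. With 2 libraries per tissue the value for crossed numbers, -0.234, is fixed by the first and is no separate check. Nothing says that cells of a library came from more than 1 animal.

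The 10 genes, the companion lists and the tests were chosen with earlier results of these data known. Apart from the 10, genes open to naming were those past the threshold in each clock, target or signal list, the 2 most abundant and the one with the smallest p in each such list, the sort genes, the most abundant handling and other-cell genes, and the 3 nearest profiles. Csf2, Sphk2, Thra, 0610040F04Rik, Lum, Wt1, Klra8, Csf1r, Mrc1, Adgre1, C1qa, Itgam, Cd68, Fcgr1, Cxcr2, Fabp4, Plin1, Cidec, Cd8b1 and Dntt were named after their values were seen. Ly6g and Trac, named in the marker lists, were not analysed here, and 1 gene counted in the companion lists is not reported here. Gene positions and exon lengths come from GENCODE M21 (GRCm38, the same build as mm10). The test was tried on simulated counts with 200 changed genes. Of those tested, it called 4.17% of genes changed 2-fold, 2.33% at 4-fold, 78% at 16-fold and 81.8% at 64-fold. A gene not called may therefore still differ 4-fold between tissues. Intervals cover counting error only, since reads carry no molecular identifiers. Alternatives were RLE, upper-quartile and library-total scaling, no filter, a minimum count of 50, DESeq2 1.42.0, the replicate block, each library left out, and library sizes over all genes, which was chosen after seeing the data.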

Additional observations from a re-analysis of the deposited data

How the results depend on the processing

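Bhlhe40, Nfil3, Per1, Per2, Nr1d1 and Dbp kept the direction of their log2 fold changes under every alternative that gave a value, which for Per2 and Dbp excludes the minimum count of 50, where they were not tested. Arntl turned to 0.22 with upper-quartile factors, 0.025 with library totals and 0.00076 with a minimum count of 50, and Clock to 0.28, 0.14 and 0.10. Por turned to 0.16 and Thra to 0.17 with upper-quartile factors. With 1 library left out at a time, values spanned -1.11 to 0.50 for Arntl, -1.63 to 0.48 for Clock, -0.22 to 1.26 for Cry1, -1.03 to 0.96 for Nr1d2, -2.69 to 0.73 for Cry2, -1.30 to 1.68 for Csnk1a1, -0.14 to 1.77 for Gsk3b, -0.75 to 0.30 for Por, -5.86 to 5.69 for S100a8 and -2.47 to 5.83 for S100a9. The number of genes called moved to 26 with library totals (24 higher, 2 lower) and to 3 with a minimum count of 50, and ran from 44 to 606 over the libraries left out. It was 308 with the replicate block, within 1.5 times of 215, and among the named genes the block ended the calls of Dusp1, S100a8 and S100a9, added those of Csf2, Wif1 and Hey1 and changed no other. None of the other clock genes was called under any alternative in edgeR or in DESeq2. DESeq2 called 363 genes, 210 higher and 153 lower, and upper-quartile scaling split its calls into 188 higher and 13 lower, against 178 and 37. The median log2 fold change of all genes tested was 0.60 with upper-quartile factors, 0.37 with library totals and 0.24 with RLE, against 0.11. The causes were not tested. Library sizes over all genes left the count at 215. Depth limits Dbp, Per2 and Nr1d1, whose omental libraries gave 4 to 41 reads, and 2 libraries per tissue limit every comparison.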
